A study of Mus musculus with 16 samples.

Results

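The 43 genes described here encode the enzymes that carry glucose to pyruvate and lactate, feed pyruvate into the mitochondrion and turn the tricarboxylic acid (TCA) cycle. They were taken by symbol from the deposited table of 31960 genes: 17 of glycolysis, 9 of pyruvate entry and 17 of the TCA cycle, and all 43 were found in it. RNA from the hippocampus was sequenced in 16 mice, 1 library per mouse, to ask how 2 inbred lines differ in gene expression in each sex. The High Activity line (H2) and the Low Activity line (L2) were both bred from a BALB/cJ by C57BL/6 cross by selection in opposite directions for open-field activity, and all mice were 70 days old. The groups were High Activity females (libraries 1 to 4), High Activity males (5 to 8), Low Activity females (9 to 12) and Low Activity males (13 to 16). Each direction of selection is represented by a single inbred line, so the effect of selection and other differences between the lines cannot be told apart. Each library held between 20815456 and 28760896 counts. Levels are given as CPM, a gene's counts relative to the scaled total of its library, and a fold change is the log2 difference of High Activity minus Low Activity.

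Glycolysis splits glucose in the cytosol and yields ATP, NADH and pyruvate. Pyruvate is either reduced to lactate or carried into mitochondria, where the pyruvate dehydrogenase complex makes acetyl-CoA for the TCA cycle, whose dehydrogenases pass electrons to the respiratory chain. In brain, neurons draw heavily on oxidation of pyruvate, while astrocytes are known for glycolysis and lactate release, and the isozymes of several steps differ between these cells.

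Gapdh (ENSMUSG00000057666, glyceraldehyde-3-phosphate dehydrogenase, the NADH-producing step of glycolysis and a common reference gene) was the most changed of the 43 genes. It lies at chr6:125161715-125166467 on the minus strand of GRCm38. Mouse Gapdh has many processed pseudogenes, copies of its mRNA inserted elsewhere in the genome, and 187 pseudogenes in the table aligned to its transcripts. The 81 bases below are shown because they mark how closely 2 of these copies match Gapdh. They run from base 556 to base 636 of the 1420-base Gapdh transcript, 5′ to 3′, in the coding part, and come from the GENCODE M21 transcripts (GRCm38). In the copies a capital marks a base that differs from Gapdh, and in Gapdh the capitals mark the bases at which a printed copy differs.
Gapdh: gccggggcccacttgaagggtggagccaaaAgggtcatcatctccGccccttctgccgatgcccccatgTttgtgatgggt
Gm13394: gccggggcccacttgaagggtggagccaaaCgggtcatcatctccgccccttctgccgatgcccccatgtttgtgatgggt
Gm7336: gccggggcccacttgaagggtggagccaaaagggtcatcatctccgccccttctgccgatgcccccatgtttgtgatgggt
Gm12070: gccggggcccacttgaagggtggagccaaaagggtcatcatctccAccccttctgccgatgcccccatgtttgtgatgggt
Gm5559: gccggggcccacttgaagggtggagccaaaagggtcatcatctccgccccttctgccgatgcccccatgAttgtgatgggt

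Gm13394 (chr2:28933610-28934609) matched Gapdh over transcript bases 241 to 1240 with the single substitution A586C, where positions count from base 1 of the transcript and the Gapdh base comes first. That base is at position 125163016 of chromosome 6, in exon 4 of 7. Gm7336 (chr7:51746647-51747878) matched bases 191 to 1420 with the substitution G197A in the 5′ UTR and 1 gap. It had no substitution in the coding part, and the place of the gap was not determined. Gm12070 (G601A) and Gm5559 (T625A) are printed because they too differ from Gapdh by 1 base. Of the 7 ungapped copies with 1 substitution, Gm13394 was the sole one with many counts, and the other 6 held between 2 and 90 counts each over all 16 libraries.

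Gapdh itself had 796.7, 756.5, 762.5 and 778.0 CPM in High Activity females against 1826, 1800, 1877 and 1890 CPM in Low Activity females. High Activity males had 793.4, 791.4, 706.8 and 802.6 CPM and Low Activity males 1706, 1794, 1681 and 1817 CPM. The groups did not overlap in either sex. High Activity females were at a fold change of -1.26 ± 0.05 (SE; edgeR quasi-likelihood test, adjusted p = 4.82e-16) and High Activity males at -1.18 ± 0.05 (adjusted p = 1.96e-15), with 4 libraries in each group. In a bulk sample, fewer cells of a type and less RNA per cell cannot be told apart.

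The 2 near-identical copies ran the other way. Gm13394 had 20418, 21056, 20807 and 18941 counts in the 4 High Activity females and 21860, 19119, 19013 and 20315 in the males of that strain. In Low Activity females it had 357, 24, 4 and 0 counts, and in the Low Activity males 7, 0, 9 and 0. Counts given to Gm13394 were thus few in the Low Activity strain and about as many as those given to Gapdh in the High Activity strain. Gm7336 had between 3732 and 4858 counts in the 8 High Activity libraries and between 0 and 244 in the 8 Low Activity libraries. The counts of both copies were called higher in High Activity mice in each sex, with adjusted p-values of 1.86e-11 in females and 2.06e-12 in males for Gm13394 and of 1.06e-09 and 3.06e-09 for Gm7336.

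The other pseudogenes showed no such gap. Together the remaining 185 had between 341 and 428 counts in High Activity libraries and between 313 and 453 in Low Activity libraries. The next 3 by counts were 3000002C10Rik, Gm5069 and Gm11960, less similar copies at 92.4%, 93.2% and 92.9% identity. Their adjusted p-values for the mean of the sexes were 0.182, 0.927 and 0.61.

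**Figure D1:**
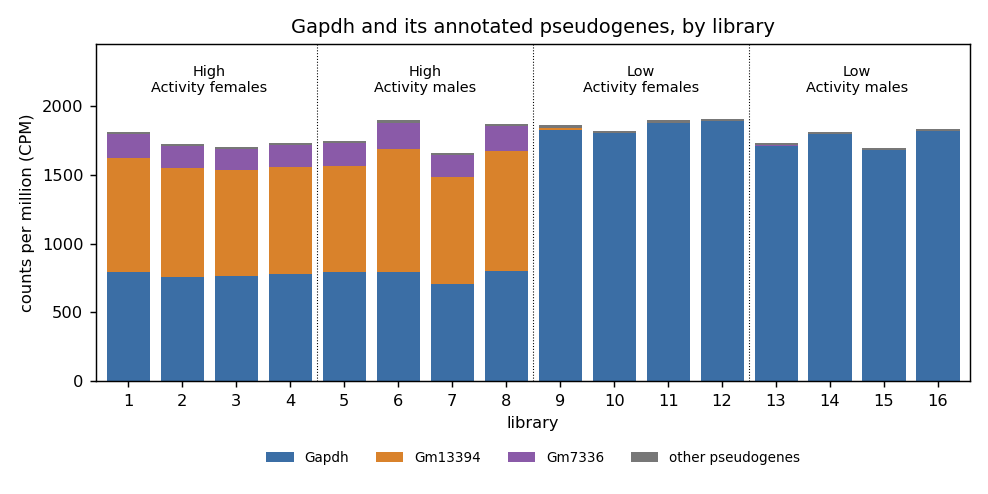
Stacked bars give the CPM of Gapdh (blue), Gm13394 (orange), Gm7336 (purple) and the other 185 pseudogenes of Gapdh (grey) in each of the 16 libraries. Gapdh makes up 41.8% to 45.4% of the stack in High Activity libraries and 98.2% to 99.3% in Low Activity libraries, while the height of the stack runs from 1657 to 1895 CPM in High Activity and from 1693 to 1907 CPM in Low Activity libraries.

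When Gapdh and all of its pseudogenes were summed, the strain difference was no longer called. In females the sum was 1743 ± 46.7 CPM (SD, n = 4) for High Activity against 1869 ± 41.1 CPM for Low Activity, and in males 1793 ± 111 against 1768 ± 65.5 CPM. The 4 female sums of each strain did not overlap (1705 to 1811 against 1816 to 1907 CPM), while those of the males did. The sum had a fold change of -0.10 ± 0.05 in females (edgeR, adjusted p = 0.316) and 0.02 ± 0.05 in males (adjusted p = 0.908). Pseudogenes made up 55.6% ± 0.517 of the sum in High Activity females and 56.8% ± 1.55 in High Activity males, against 1.13% ± 0.421 and 1.03% ± 0.388 in Low Activity females and males. Whether the reads given to Gm13394 and Gm7336 came from those loci or from Gapdh was not tested, since the reads were not analysed here.

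The steps beside Gapdh changed far less than the counts given to Gapdh alone. Tpi1 (triosephosphate isomerase) supplies its substrate and Pgk1 (phosphoglycerate kinase) uses its product. Both were downregulated in High Activity females, at -0.18 for Tpi1 and -0.17 for Pgk1. Gapdh was at -1.26 there by its own counts and at -0.10 with its pseudogenes added. The log2 ratio of Gapdh to Tpi1 was 0.64 ± 0.03 (SD) in High Activity females and 1.72 ± 0.04 in Low Activity females, and 0.60 ± 0.09 and 1.76 ± 0.03 in the males. The difference of High Activity minus Low Activity was -1.12 over both sexes (exact two-sided permutation within sex, p = 0.000408, the smallest possible with 4900 assignments; adjusted p = 0.00102 over 10 ratios). For the ratio of Gapdh to Pgk1 the difference was -1.12 too, with the same p. With pseudogene counts added to each gene, both ratios were 0.06 higher in High Activity mice (adjusted p = 0.0524 and 0.05).

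Genes around Gapdh on chromosome 6 gave a mixed picture. Tpi1 and Eno2 lie within 500 kb of it, with starts at 124810586 and 124760053, and neither was called in the mean of the sexes (adjusted p = 0.0543 and 0.16). With Tpi1 and Eno2 included, 41 protein-coding genes besides Gapdh start within 500 kb of it. Of these 41, 2 were upregulated and 9 downregulated in the mean of the sexes, 26.8% against 16.5% of all protein-coding genes. The next gene, Ncapd2 (start 125168007), a condensin subunit named after its values were seen, was downregulated with a fold change of -0.77 ± 0.09 (adjusted p = 1.13e-06).

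Idh3b (chr2:130279309-130284547, minus strand) was the sole other gene of the 43 called in both sexes. It encodes a beta subunit of the NAD-dependent isocitrate dehydrogenase of the TCA cycle, and no pseudogene aligned to it. Idh3b had 167.1, 154.4, 151.6 and 156.3 CPM in High Activity females against 228.4, 212.5, 218.9 and 207.6 CPM in Low Activity females. The males had 154.4, 152.5, 157.5 and 170.2 CPM in High Activity and 196.4, 198.7, 193.7 and 201.8 CPM in Low Activity. All 8 High Activity values lay below all 8 Low Activity values. Idh3b was downregulated by a fold change of -0.46 ± 0.05 in females (adjusted p = 1.45e-07) and of -0.32 ± 0.05 in males (adjusted p = 6.43e-05), a change in level of -27.4% and -19.7%.

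The other subunits of the same enzyme moved less. Idh3g, a gamma subunit encoded on the X chromosome, was downregulated in females (-0.17 ± 0.05, adjusted p = 0.0165) and was at -0.03 ± 0.05 in males (adjusted p = 0.845). Idh3a, the catalytic alpha subunit, was at -0.07 ± 0.05 in females and 0.01 ± 0.05 in males and was not called. Idh2, the NADP-dependent mitochondrial enzyme, was at 0.11 ± 0.07 and 0.03 ± 0.07. In a window of 500 kb around the start of Idh3b, which was added after the data were seen, 10 of 24 protein-coding genes (41.7%, beside 16.5% of all protein-coding genes) were called in the mean of the sexes, 5 in each direction.

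**Figure D2:**
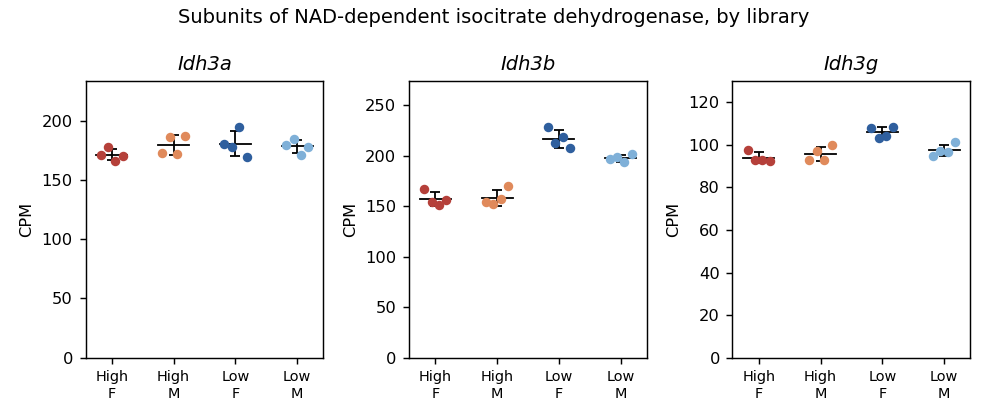
Points give the CPM of Idh3a, Idh3b and Idh3g in each library (4 per group, F female, M male), with the mean and SD in black. Idh3b separates by strain in both sexes, between 151.6 and 170.2 CPM in High Activity and between 193.7 and 228.4 CPM in Low Activity, while the Idh3a groups overlap.

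Across the 43 genes, 11 were downregulated in High Activity females and 0 were upregulated. That is 25.6% of the genes. Among the 9988 protein-coding genes of at least 10 CPM, a level that 42 of the 43 genes reach, 16.3% were called in females and 7.95% were downregulated. In males Gapdh and Idh3b were downregulated and no other gene was called, 4.65% of the genes beside 12.4% called and 7.13% downregulated in that background. In the mean of the sexes 10 genes were called, all downregulated, 23.3% beside 23% called and 12.6% downregulated. Any strain effect was called for 10 genes, again 23.3%, beside 22.5%. The share of genes called thus lay near the background in the mean of the sexes, above it in females and below it in males. In females this depended on the processing. With a library offset for transcript length and GC content 5 of 43 genes (11.6%) were called, and without 1 library as few as 6. Both shares lie under 16.3%, but that background comes from all 16 libraries without the offset. It was not computed anew for these settings, so the comparison is not like with like. The median fold change over the 43 genes was -0.09 in females and -0.01 in males, beside -0.0098 and -0.0174 over the same protein-coding genes. Fold changes lay below 0 for 35 of 43 genes in females and for 23 of 43 in males.

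No difference between the sexes was called by edgeR for any of the 43 genes. The strain by sex interaction was called for 0 of 43 genes by edgeR, DESeq2 and limma-voom alike, beside 0% of the protein-coding genes of at least 10 CPM with edgeR. An unadjusted interaction p under 0.05 was found for 10 of 43 genes (23.3%, beside 20.6%), all with a lower fold change in females, and the smallest adjusted p was 0.37. Between males and females of 1 strain, edgeR called 0 of 43 genes in High Activity and 0 of 43 in Low Activity mice, beside 0.0701% and 0.681%. Unadjusted p-values under 0.05 numbered 2 and 5 in these comparisons, beside 6.32% and 21.8% of the background. DESeq2 called 0 and 1, the latter being Ldha.

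**Figure D3:**
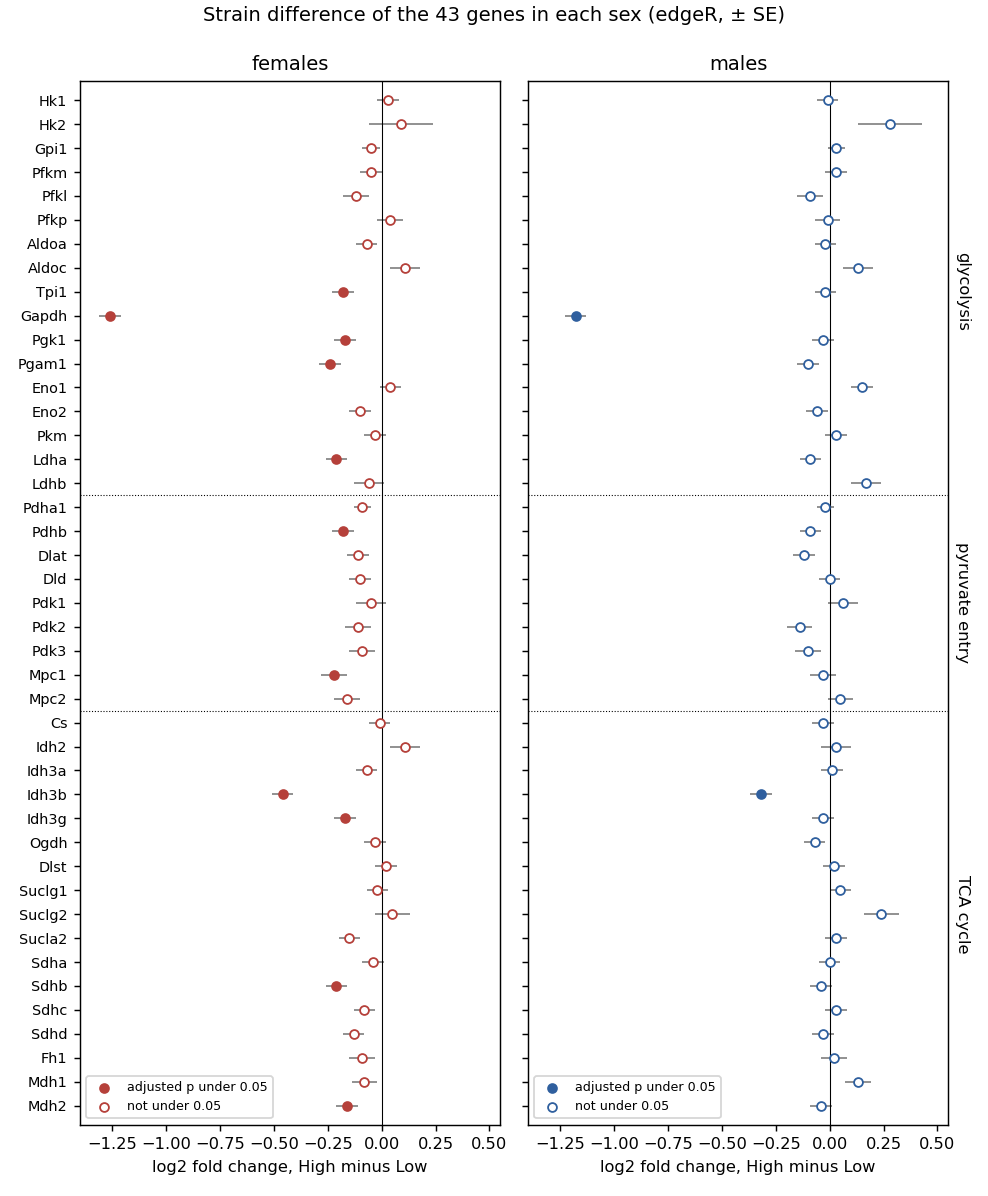
Log2 fold change of High Activity minus Low Activity (± SE, edgeR, 4 libraries per group) for the 43 genes in pathway order, in females (left, red) and males (right, blue), with filled points for an adjusted p under 0.05. Gapdh and Idh3b stand to the left of the others in both sexes, at -1.26 and -0.46 for females and at -1.18 and -0.32 for males, and the other 9 filled points in females lie between -0.24 and -0.16.

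In the upper part of glycolysis no gene was called. Hexokinase traps glucose in the cell, and Hk1, the brain form, was at 0.03 ± 0.05 in females and -0.01 ± 0.05 in males. Hk2, an inducible form and the lowest of the 43 genes at 4.19 CPM, was at 0.09 ± 0.15 and 0.28 ± 0.15. Gpi1 (glucose-6-phosphate isomerase) was at -0.05 ± 0.04 and 0.03 ± 0.04. Phosphofructokinase is the main point of control of glycolysis, with muscle, liver and platelet type genes. Pfkm was at -0.05 ± 0.05 in females and 0.03 ± 0.05 in males, Pfkl at -0.12 ± 0.06 and -0.09 ± 0.06, and Pfkp at 0.04 ± 0.06 and -0.01 ± 0.06. Aldolase cleaves the 6-carbon sugar, with Aldoa broadly expressed and Aldoc enriched in brain. Aldoa, at 1015 CPM per kb of transcript, was at -0.07 ± 0.05 and -0.02 ± 0.05. Aldoc was at 0.11 ± 0.07 and 0.13 ± 0.07.

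In the lower part 4 further genes were downregulated in High Activity females. Pgam1, a phosphoglycerate mutase, had 447.4 ± 10.7 CPM (mean and SD, n = 4) in females of the High Activity strain against 529.6 ± 12.8 CPM in those of the Low Activity strain, a fold change of -0.24 ± 0.05 (adjusted p = 0.00114). Ldha, the lactate dehydrogenase subunit that favours lactate production, had 225.0 ± 9.63 CPM against 259.5 ± 6.66 CPM, a fold change of -0.21 ± 0.05 (adjusted p = 0.00791). Tpi1 had 478.3 to 511.1 against 552.8 to 575.9 CPM (-0.18 ± 0.05, adjusted p = 0.0142). For these 3 genes the female groups did not overlap, which held for 19 of the 43 genes, some of them not called in females. The share among all genes was not computed, so this count is not read as a trait of the 43 genes. Pgk1, which makes ATP and is encoded on the X chromosome, had 362.3 ± 7.79 against 407.1 ± 4.35 CPM (-0.17 ± 0.05, adjusted p = 0.0227). In males their fold changes were -0.10 ± 0.05 for Pgam1, -0.09 ± 0.05 for Ldha, -0.02 ± 0.05 for Tpi1 and -0.03 ± 0.05 for Pgk1, and none was called. Pgam1, Ldha and Pgk1 were also called in the mean of the sexes, at -0.17, -0.15 and -0.10.

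The remaining genes of this stretch were not called. Enolase makes phosphoenolpyruvate, and Eno1, the widely expressed form, was at 0.04 ± 0.05 in females and 0.15 ± 0.05 in males. Eno2, the neuronal form, was at -0.10 ± 0.05 and -0.06 ± 0.05. Pkm (pyruvate kinase), which ends glycolysis, was at -0.03 ± 0.05 and 0.03 ± 0.05. Ldhb, the lactate dehydrogenase subunit that favours use of lactate, was at -0.06 ± 0.07 and 0.17 ± 0.07. Eno1 also shares sequence with other loci, since the pseudogene Gm4735 and the near-identical gene Eno1b held 63198 and 85411 counts beside 109171 for Eno1. Gm4735 was at 0.05 ± 0.05 in females and 0.04 ± 0.05 in males, so its level did not switch with strain as that of Gm13394 did. Eno1b was at 0.06 ± 0.05 and 0.21 ± 0.05 and was called in males (adjusted p = 0.0126). Pgam1-ps2, a copy of Pgam1, had 368 and 388 counts in Low Activity males 13 and 14, 28 and 24 in libraries 11 and 15, and 0 in the other 12 libraries.

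Pyruvate entry held 2 genes that were downregulated in High Activity females. Mpc1, a subunit of the mitochondrial pyruvate carrier, had 76.62 ± 3.59 CPM in High Activity females against 88.96 ± 2.65 CPM (-0.22 ± 0.06, adjusted p = 0.0217), and was at -0.03 ± 0.06 in males. Pdhb, the beta subunit of the E1 component of pyruvate dehydrogenase, had 112.9 ± 3.96 against 127.6 ± 4.47 CPM (-0.18 ± 0.05, adjusted p = 0.0174), and was at -0.09 ± 0.05 in males. Both lay lower in every High Activity female than in every Low Activity female. In the mean of the sexes Pdhb was called (-0.14, adjusted p = 0.00603), as were Dlat, the E2 component (-0.11, adjusted p = 0.021), and Pdk2, a kinase that inhibits the complex (-0.12, adjusted p = 0.0448). Dlat was at -0.11 ± 0.05 in females and -0.12 ± 0.05 in males, and Pdk2 at -0.11 ± 0.06 and -0.14 ± 0.06.

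The other genes of this step were not called. Pdha1, the X-linked alpha subunit of E1, was at -0.09 ± 0.04 in females and -0.02 ± 0.04 in males. Dld, the E3 component shared with other complexes, was at -0.10 ± 0.05 and 0.00 ± 0.05. Of the other kinases, Pdk1 was at -0.05 ± 0.07 and 0.06 ± 0.07 and Pdk3 at -0.09 ± 0.06 and -0.10 ± 0.06. Mpc2, the partner of Mpc1 in the carrier, was at -0.16 ± 0.06 in females, the lowest value among genes not called there, and at 0.05 ± 0.06 in males.

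In the TCA cycle 4 genes were downregulated in High Activity females, Idh3b and Idh3g as above, Sdhb and Mdh2. Sdhb, the iron-sulfur subunit of succinate dehydrogenase (complex II of the respiratory chain), had 84.12 ± 1.42 CPM in High Activity females against 97.25 ± 1.75 CPM (-0.21 ± 0.05, adjusted p = 0.00435). It was at -0.04 ± 0.05 in males and was called in the mean of the sexes (-0.13, adjusted p = 0.0109). Mdh2, the mitochondrial malate dehydrogenase, had 214.7 ± 8.12 against 240.5 ± 5.12 CPM in females (-0.16 ± 0.05, adjusted p = 0.0414) and was at -0.04 ± 0.05 in males. Mdh1, the cytosolic enzyme, which serves the malate-aspartate shuttle, was at -0.08 ± 0.06 in females and 0.13 ± 0.06 in males.

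The other subunits of succinate dehydrogenase were not called. Sdha, the flavoprotein, was at -0.04 ± 0.05 in females and 0.00 ± 0.05 in males, Sdhc, a membrane anchor, at -0.08 ± 0.05 and 0.03 ± 0.05, and Sdhd, the other anchor, at -0.13 ± 0.05 and -0.03 ± 0.05. Besides Idh3b and Idh3g, no gene of the entry and middle of the cycle was called by edgeR. Cs (citrate synthase) was at -0.01 ± 0.05 and -0.03 ± 0.05, Ogdh, the E1 component of the 2-oxoglutarate dehydrogenase complex, at -0.03 ± 0.05 and -0.07 ± 0.05, and Dlst, its E2 component, at 0.02 ± 0.05 and 0.02 ± 0.05. Fh1 (fumarase) was at -0.09 ± 0.06 and 0.02 ± 0.06. Succinyl-CoA ligase makes ATP or GTP depending on its beta subunit. Suclg1, the shared alpha subunit, was at -0.02 ± 0.05 and 0.05 ± 0.05, Sucla2, the ATP-forming beta subunit, at -0.15 ± 0.05 and 0.03 ± 0.05, and Suclg2, the GTP-forming one, at 0.05 ± 0.08 and 0.24 ± 0.08. None of these 3 passed the test in either sex.

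**Figure D4:**
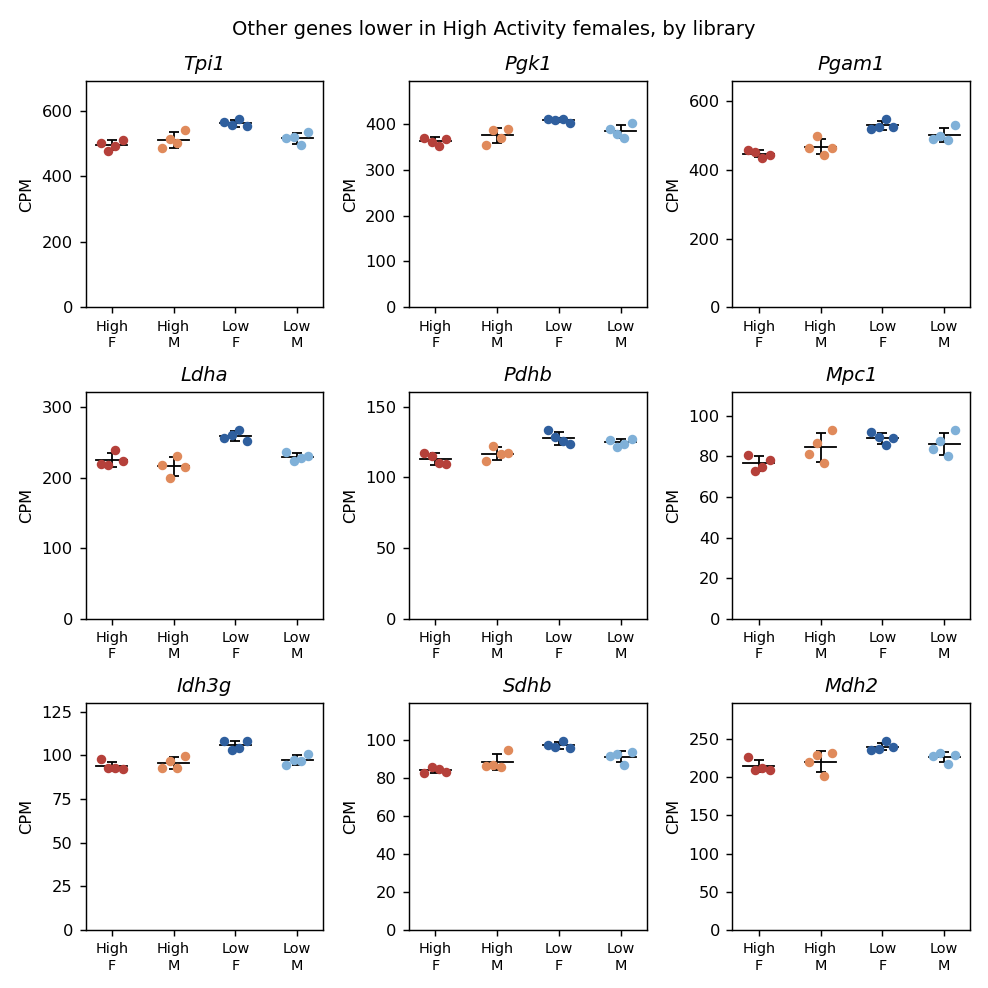
CPM by library (4 per group, F female, M male; mean and SD in black) of the 9 genes besides Gapdh and Idh3b that were downregulated in High Activity females. The female groups of each gene do not overlap, for example 82.75 to 85.63 CPM against 95.66 to 99.56 CPM for Sdhb. The male groups of all 9 overlap. Of all 43 genes, 19 have female groups that do not overlap, among them genes not called in females, such as Eno2 and Mdh1. The share among all genes was not computed.

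Transcript length moved with the differences in females. The 11 genes called in females have transcripts of 958 to 1825 bases (median 1513), and the other 32 have 1025 to 5513 bases (median 2775). Across 42 genes without Gapdh, Spearman's rho of fold change and transcript length was 0.58 in females and 0.17 in males, a description over genes measured in the same libraries. With a library offset fitted on transcript length and GC content, rho was 0.33 in females and 0.30 in males. Under that offset 5 genes were called in females (Gapdh, Idh3b, Pgam1, Ldha and Pgk1) and 2 in males. The values of the 6 genes then not called in females were -0.15 for Tpi1, -0.15 for Pdhb, -0.15 for Mpc1, -0.13 for Idh3g, -0.13 for Sdhb and -0.10 for Mdh2. The female count of 11 was also 6 without High Activity female 2, without High Activity female 3 or without Low Activity female 9. The count of 10 in the mean of the sexes was 6 without High Activity female 2, High Activity female 3 or Low Activity female 11. The count of 10 for any strain effect was 6 without High Activity female 2, High Activity female 3, Low Activity female 11 or Low Activity female 12, and 5 without Low Activity female 9.

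Ratios within a library compare isozymes without any scaling, and 10 were tested. The log2 ratio of Aldoa to Aldoc differed by -0.18 in females and by -0.15 in males, High Activity minus Low Activity (exact two-sided permutation within sex, p = 0.000408, adjusted p = 0.00102). For Eno1 to Eno2 the differences were 0.13 and 0.20, at the same p-values. In both ratios the groups of each sex did not overlap, and the p of 0.0286 in each sex is the smallest that 70 assignments allow. The ratio of Suclg2 to Sucla2 was 0.20 higher in females and 0.21 higher in males (adjusted p = 0.00327 over both sexes). The same permutation test in each sex alone gave p = 0.114 in females and 0.0286 in males. All 3 ratios kept an adjusted p under 0.05 over both sexes without any 1 library and with pseudogene counts added.

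The remaining ratios were weaker. That of Ldha to Ldhb differed by -0.20 over both sexes (adjusted p = 0.0476). Its adjusted p stayed under 0.05 without High Activity female 3, High Activity male 7 or Low Activity female 12, and lay between 0.0517 and 0.126 without any 1 of the other 13 libraries. The ratios of Hk1 to Hk2, Pfkl to Pfkp, Pfkm to Pfkp and Pdk2 to Pdk3 had adjusted p-values of 0.0863, 0.186, 0.635 and 0.635, with differences of -0.17, -0.12, -0.03 and -0.03. Per length of transcript, Aldoc made up 19.5% ± 0.776 (SD) of aldolase in females of the High Activity and 17.7% ± 0.741 in those of the Low Activity strain, and 18.7% ± 0.448 and 17.2% ± 1.15 in the males. Eno1 made up 32.3% ± 0.309 and 30.3% ± 1.34 of both enolases in females and 32.8% ± 0.709 and 29.8% ± 0.963 in males. These enolase shares leave out Gm4735 and Eno1b, and with both added to Eno1 they were 49.0% to 53.7% over all libraries.

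Some lists of cell type markers differed by strain, and others did so little or not at all. Of 6 astrocyte markers (Aqp4, Aldh1l1, Gja1, Slc1a2, Slc1a3 and Gfap), 3 were upregulated in High Activity mice in the mean of the sexes. None was downregulated. Their summed level was 5182 to 5385 CPM in High Activity females, 4354 to 5488 in High Activity males, 4109 to 4335 in Low Activity females and 4141 to 4273 in Low Activity males. Of 7 neuron markers 1 was downregulated, with sums of 7484 to 8786 CPM in High Activity and 8216 to 9232 CPM in Low Activity libraries. Of the endothelial markers 3 of 4 were upregulated in the mean of the sexes, of the choroid plexus markers 2 of 5 and of the blood markers 4 of 4. Among protein-coding genes of at least 10 CPM, 23% were called in either direction and 10.4% were upregulated. Choroid plexus sums overlapped widely and ranged from 990 to 5259 CPM in High Activity and from 129 to 3530 CPM in Low Activity libraries. Of the thalamus and habenula markers 3 of 6 were upregulated too, with a median fold change of 0.67 over the list. They summed to as much as 529 CPM in High Activity males and 319 in Low Activity males, and to at most 205 CPM in the females. Of the oligodendrocyte markers 0 of 5 were called by edgeR, and of the microglia markers 1 of 5 was downregulated. All 6 hippocampal markers were present, 3 of them upregulated, at a sum of 609 to 777 CPM, and no marker of any list was at 0 in all libraries. The part of these cell types in the enzyme differences was not tested.

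Gapdh and Aldoa had the highest levels per length of transcript. By the counts given to Gapdh alone, their order turned with strain. Gapdh was at 1302 CPM per kb in Low Activity females against 1053 for Aldoa, and at 544.7 against 1002 in High Activity females. With the counts of its pseudogenes added, Gapdh was above Aldoa in the mean of all libraries (1263 against 1015 CPM per kb). The same held in each group, so the order then did not turn. The values were 1228 against 1002 in High Activity females and 1263 against 996.5 in High Activity males. In Low Activity mice they were 1316 against 1053 in females and 1245 against 1008 in males. Pkm (454.6), Tpi1 (324.4) and Eno2 (287.6) came next. Mdh1 was the most abundant gene of the TCA cycle (235.1 CPM per kb), and Suclg2 (5.13) and Hk2 (0.759) were the lowest of the 43 genes. Hk1 made up 98.7% to 99.2% of both hexokinases in every library, and Pdk2 made up 64.8% to 69.8% of the 3 kinases of pyruvate dehydrogenase.

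Of the 60 genes listed for connected pathways, 58 were in the table. Those described here were called for any strain effect unless stated otherwise. Any strain effect was called for 22.5% of protein-coding genes of at least 10 CPM and for 15.2% of all protein-coding genes. The counts of called genes in each list below are to be read beside these shares. Among enzymes that use TCA cycle intermediates, Me3, a mitochondrial NADP-dependent malic enzyme, had 36.51 to 41.16 CPM in High Activity females and 65.28 to 69.70 in those of Low Activity. The males had 28.41 to 42.41 and 58.79 to 71.94 CPM. Its fold changes were -0.77 ± 0.09 and -0.75 ± 0.09 (adjusted p = 3.46e-07 and 5.85e-07). Me3 thus changed more than any of the 43 genes but Gapdh. Pcx (pyruvate carboxylase, which makes oxaloacetate and is enriched in astrocytes) was upregulated in females (0.26 ± 0.06, adjusted p = 0.00927) and was at 0.12 ± 0.06 in males. Pdhx, which anchors E3 in the pyruvate dehydrogenase complex, was downregulated in the mean of the sexes (-0.16 ± 0.04, adjusted p = 0.00888). These 3 were the called genes among 9 of that list.

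Among 9 genes that control glycolysis or pyruvate dehydrogenase, Tigar alone was called. Its product lowers fructose-2,6-bisphosphate and so slows glycolysis in favour of the pentose phosphate pathway. Tigar had 20.99 to 22.96 CPM in High Activity females against 34.53 to 37.34 CPM, and 18.83 to 22.93 against 33.09 to 40.82 CPM in the males. Its fold changes were -0.69 ± 0.07 and -0.81 ± 0.07 (adjusted p = 1.01e-07 and 6.35e-09). In the pentose phosphate pathway 1 of 7 genes was called, Tkt (transketolase), which was upregulated in High Activity females (0.36 ± 0.05, adjusted p = 4.89e-05) and males (0.22 ± 0.05, adjusted p = 0.01).

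Of 8 genes for shuttles of NADH into mitochondria, 2 were called for any strain effect, near the 22.5% of protein-coding genes of at least 10 CPM. Got1, the cytosolic aspartate aminotransferase of the malate-aspartate shuttle, was upregulated in both sexes (0.17 ± 0.05, adjusted p = 0.0318, and 0.25 ± 0.05, adjusted p = 0.00117). Gpd1l, related to glycerol-3-phosphate dehydrogenase, was downregulated in females (-0.20 ± 0.05, adjusted p = 0.0057) and was at -0.12 ± 0.05 in males. A further 2, named after their values were seen, were called in females and not for any strain effect: Slc25a11, the oxoglutarate carrier, at -0.18 ± 0.05 (adjusted p = 0.0333), and Gpd2, the mitochondrial glycerol-3-phosphate dehydrogenase, at 0.20 ± 0.06 (adjusted p = 0.0417). The groups of Got1 did not overlap in either sex, with 240.8 to 263.0 against 218.2 to 225.9 CPM in females.

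Among rarer isozymes and the remaining lists, 3 further genes had a strain effect. Hkdc1, a hexokinase-like gene at 4.66 CPM, was at -0.60 ± 0.14 in females (adjusted p = 0.00626) and -0.18 ± 0.14 in males. It was counted among 14 rarer isozymes in the table. Slc16a7, a transporter of lactate and pyruvate known in neurons, was downregulated in High Activity males (-0.26 ± 0.07, adjusted p = 0.033) and was at 0.08 ± 0.07 in females, 1 of 7 transport genes with any strain effect. Its female value turned to -0.23 (adjusted p = 0.0153) with the length and GC offset. Slc2a1, the glucose transporter of endothelium and astrocytes, was upregulated in High Activity females (0.29 ± 0.08, adjusted p = 0.037), was at -0.02 ± 0.08 in males and was not called for any strain effect. It is named after its values were seen. Sdhaf4, an assembly factor of succinate dehydrogenase, was downregulated in High Activity females (-0.37 ± 0.09, adjusted p = 0.00611) and was at 0.10 ± 0.09 in males, 1 of 4 assembly factors. Its interaction had an unadjusted p of 0.000638 and an adjusted p of 0.145.

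**Figure D5:**
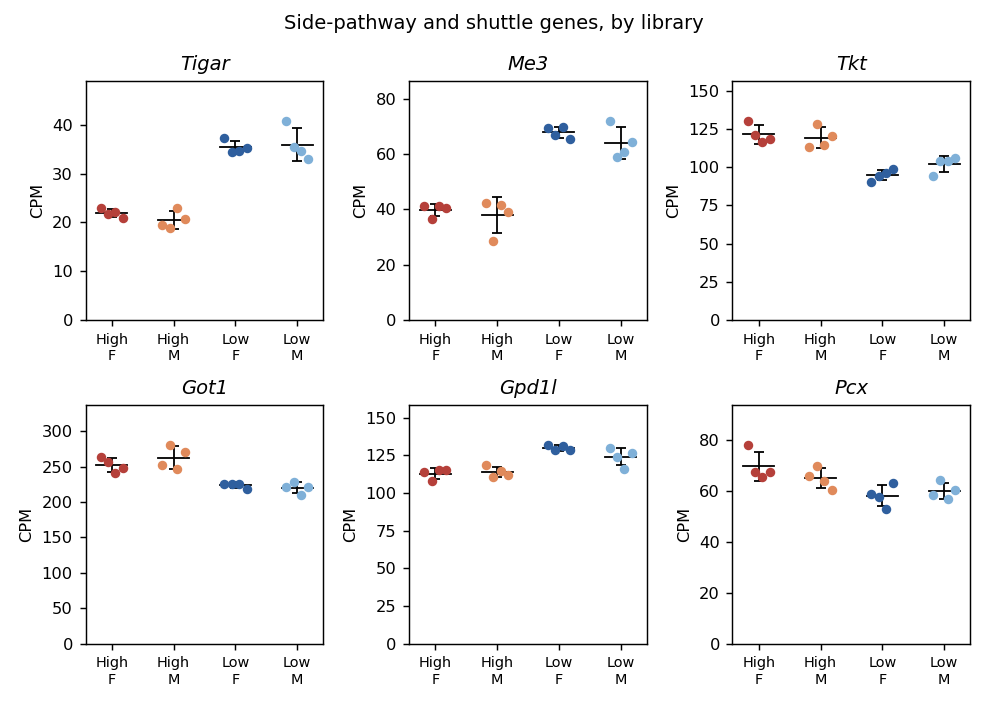
CPM by library (4 per group, F female, M male; mean and SD in black) of Tigar, Me3, Tkt, Got1, Gpd1l and Pcx. Tigar, Me3, Tkt and Got1 separate by strain in both sexes, Tigar and Me3 being lower and Tkt and Got1 higher in High Activity mice, as for Tigar at 18.83 to 22.96 CPM against 33.09 to 40.82 CPM.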

How the data were processed

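Poly-A RNA libraries of the hippocampus of 16 mice were used. Before deposit, the authors removed adapters, mapped reads with HISAT2 (mm10) and used RSEM with an Ensembl transcriptome, and genes without any count were dropped. The deposited values are RSEM expected counts, already whole numbers and not normalized, and were used as such. Reads shared by near-identical genes are split by estimation, which bears on Gapdh. From these counts, CPM with TMM factors and quasi-likelihood F-tests were computed with edgeR 4.0.16 (legacy fit, R 4.3.3), 1 coefficient per strain and sex group, no filter, and Benjamini-Hochberg adjustment over all 31960 genes at 0.05. Symbols, coordinates, transcripts and pseudogenes came from GENCODE M21, in which 61 identifiers were missing. Where 2 genes share the symbol Aldoa, the one with more counts was used. Pseudogenes were assigned by blastn at 80% identity over 150 bases. Ratios were tested by exact permutation of strain within sex. The fit was first tested on simulated data. Library totals were 20815456 to 28760896 counts. The edgeR p-values set a difference between groups against the variation between mice within the groups, with 1 inbred line per direction of selection.

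Every one of the 43 genes was named, with values per library for genes called in the mean of the sexes at an absolute log2 fold change of 0.3 or more, together with the 5 pseudogenes of Gapdh with most counts and the genes of connected lists with any strain effect. The result for 1 gene of these lists is not reported here. The genes, lists and tests were chosen with earlier results of these data known. Alternatives covered filterByExpr, RLE, upper-quartile and plain library scaling, DESeq2 1.42.0, limma-voom 3.58.1, the newer edgeR fit, a length and GC offset, adjustment over protein-coding genes, each sex alone, libraries left out and pseudogene counts added.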

Additional observations from a re-analysis of the deposited data

Results flagged for a closer look

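In 7 of 172 groups of 4 libraries (43 genes in 4 groups), 1 library stood far from the other 3 by Dixon's test, and chance alone marks about 1 in 20 groups. In High Activity males, library 7 was low for Gapdh (707 CPM against 791 to 803) and for Gpi1 (488 against 511 to 515), and library 8 was high for Sdhb (94.7 against 86.0 to 87.1). In High Activity females, library 1 was high for Idh3g (97.7 against 92.3 to 92.9). In Low Activity females, library 9 was low for Pdk1 (31.6 against 35.7 to 36.5) and library 10 was low for Sdhc (76.3 against 82.9 to 84.2). In Low Activity males, library 13 was high for Hk2 (4.18 against 3.61 to 3.62).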

How the results depend on the processing

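Across 30 alternatives, Idh3b was called in females and in males in every fit, at -0.49 to -0.43 and -0.35 to -0.30. Gapdh was called in all fits but those with copies added, where it was at -0.10 in females and turned to 0.02 in males; the sum of Gapdh and its pseudogenes was called in no fit, and without 1 library it ranged from -0.12 to -0.09 in females, from -0.01 to 0.06 in males and from -0.05 to -0.02 in the mean. The sum with other near-identical copies was added after the data were seen. With pseudogene counts added the ratios of Gapdh to Tpi1 and to Pgk1 turned to 0.06 and 0.06, the ratio of Ldha to Ldhb stayed at -0.20 with an adjusted p of 0.0524, and Pdk1 turned to -0.16 in the mean, through a pseudogene that matches 154 bases at 82.5% identity. The count of genes in females was 5 with the length and GC offset. In males it was 4 with filterByExpr, 4 with DESeq2 (Gapdh, Idh3b, Eno1 and Suclg2) and 1 with pseudogene counts added under all 3 definitions. Between sexes in Low Activity mice it was 1 with DESeq2 and without High Activity males 6 and 8. Without 1 library the counts ranged from 5 to 13 for any strain effect, from 6 to 12 in females, from 2 to 4 in males (4 without High Activity male 7) and from 6 to 12 in the mean. Without 1 library the ratio of Ldha to Ldhb ranged from -0.26 to -0.14 and that of Hk1 to Hk2 from -0.21 to -0.11 (adjusted p = 0.0129 without High Activity female 4 and 0.0466 without Low Activity female 12). The cause of these shifts was not tested, except that the sums remove the split of reads among copies. The smaller calls of Pgk1, Idh3g, Mdh2 and Pdk2 were lost in several of these alternatives. No paired analysis was possible because the library numbers 1 to 16 are not shared between groups.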
